A study of Mus musculus with 8 samples.

Results

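The Zbtb genes encode transcription factors that pair an amino-terminal BTB domain with carboxy-terminal C2H2 zinc fingers. The members were the rows of the authors' normalised expression table whose symbol begins with Zbtb followed by a digit. They came to 38 of 13751 rows in that table, out of 57010 genes in the count files. Of the 38, 36 encode BTB zinc finger proteins. The other two carry the prefix only by position: Zbtb8os, which encodes archease, a cofactor of the tRNA ligase complex, and Zbtb11os1, a transcript opposite Zbtb11. Zbtb genes with few or no counts are not in that table, so the members were chosen on expression as well as by name, and Zbtb32 was singled out because its difference between the groups was already known.

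RNA was sequenced from mouse CD4 T cells of wild-type C57BL/6 mice, sorted as naive cells from peripheral lymph nodes. All cultures were in RPMI GlutaMAX with FCS and were stimulated through CD3 and CD28 for 20 h, each by a coated antibody at 4 µg/mL. The FAC cultures also received iron, which the labels call FAC, and the controls (Ctrl.) did not; neither the iron dose nor a vehicle is stated. Cells of 4 mice each gave 1 FAC and 1 control library, 8 libraries in all, and the question was how added iron acts on the response of T cells.

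The BTB domain lets these proteins pair with themselves and each other and recruit corepressor complexes containing NCoR, SMRT, BCoR and histone deacetylases, while the zinc fingers choose the DNA site. Most members act as repressors. In T cells the family sets lineage: ThPOK, the product of Zbtb7b, directs thymocytes to the CD4 fate, and PLZF, the product of Zbtb16, directs invariant natural killer T cells. Zbtb32 (also called PLZP, or repressor of GATA) is induced in activated lymphocytes and, in mice, restrains proliferation and cytokine production.

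Library totals ran from 25410299 to 32368404 counts with FAC and from 25478740 to 37350654 counts in the controls. The 7 T cell markers summed to 2479 to 2543 TPM (RSEM's level per transcript length) with FAC and 2323 to 2385 TPM in controls, and of these Cd5 was called higher (log2 change 0.14, edgeR adjusted p = 0.0304, and up to 0.127 with 1 library left out). The 6 B cell markers summed to 0.13 to 0.40 TPM with FAC and 0.09 to 0.43 TPM in controls. The 6 myeloid markers summed to 0.11 to 0.22 TPM with FAC and 0.06 to 0.20 TPM in controls, and the 5 dendritic cell markers to 0.01 to 0.15 TPM with FAC and 0.02 to 0.05 TPM in controls. Lyz2, Siglech and Clec9a were at 0 counts in each of the 8 libraries, and a count of 0 allows a level of 0.0816 to 0.119 CPM (counts scaled by library size) by library. The 5 natural killer markers summed to 0.44 to 0.58 TPM with FAC and 0.39 to 0.92 TPM in controls, with Ncr1 at 0 counts. Of the CD8 markers, Cd8a averaged 0.163 CPM with FAC and 0.0954 CPM in controls, and Cd8b1 7.74 ± 1.19 CPM with FAC and 9.52 ± 1.25 CPM in controls (SD, n = 4 each).

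The promoter of Zbtb32 is shown beside that of Zbtb7b because the first gene differed most between the groups and the second is the CD4 lineage factor of the family. The windows run from 250 bases before to 50 bases after a transcription start in RefSeq (build GRCm38.p6, minus strand for both genes), 5′ to 3′ in the direction of the gene, and capitals mark CCAAT on either strand. RefSeq lists more than 1 start for each. The Zbtb32 windows are chr7:30598860-30599159 (A) and chr7:30592893-30593192 (B), and the Zbtb7b windows are chr3:89393329-89393628 (A) and chr3:89387622-89387921 (B).
Zbtb32 A: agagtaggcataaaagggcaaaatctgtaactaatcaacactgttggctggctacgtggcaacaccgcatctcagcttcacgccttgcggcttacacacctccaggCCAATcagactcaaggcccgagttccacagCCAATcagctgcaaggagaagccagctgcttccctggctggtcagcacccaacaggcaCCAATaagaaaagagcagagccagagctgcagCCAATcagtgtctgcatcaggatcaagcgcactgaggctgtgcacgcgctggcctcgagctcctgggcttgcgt
Zbtb32 B: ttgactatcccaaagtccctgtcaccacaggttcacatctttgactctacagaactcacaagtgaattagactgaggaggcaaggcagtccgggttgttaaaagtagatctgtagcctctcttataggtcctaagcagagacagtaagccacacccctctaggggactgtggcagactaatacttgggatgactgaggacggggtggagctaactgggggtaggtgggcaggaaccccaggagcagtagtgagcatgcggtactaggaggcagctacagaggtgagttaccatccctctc
Zbtb7b A: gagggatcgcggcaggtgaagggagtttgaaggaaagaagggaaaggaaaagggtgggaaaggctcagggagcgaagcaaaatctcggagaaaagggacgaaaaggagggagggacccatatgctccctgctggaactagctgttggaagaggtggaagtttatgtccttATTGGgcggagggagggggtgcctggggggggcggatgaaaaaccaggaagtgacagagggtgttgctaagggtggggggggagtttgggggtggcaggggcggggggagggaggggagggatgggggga
Zbtb7b B: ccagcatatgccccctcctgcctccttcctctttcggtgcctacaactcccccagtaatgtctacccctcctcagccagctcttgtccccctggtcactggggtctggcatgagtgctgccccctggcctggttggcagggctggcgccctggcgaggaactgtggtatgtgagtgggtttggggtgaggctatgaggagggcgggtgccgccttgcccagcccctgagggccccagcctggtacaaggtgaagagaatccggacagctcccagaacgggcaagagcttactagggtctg
Window A of Zbtb32 held CCAAT at 4 places, a count reached by 1.06% of all 32851 RefSeq promoter windows and by 3 of the 48 windows of family members, and window B held none; CCAAT was searched after the sequence had been read. Neither Zbtb32 window held the STAT motif TTCNNNGAA, the AP-1 motif TGANTCA, the NFAT core GGAAA, the E-box CACGTG or the GC box GGGCGG on either strand. These letters occur in 8.3%, 7.81%, 61.3%, 7.15% and 35.7% of all windows, in that order. Window A of Zbtb7b held GGAAA 4 times, GGGCGG 3 times and CCAAT once. Windows were found for 35 of the 38 members, and their median GC content was 64.3%, against 56.0% and 52.0% in windows A and B of Zbtb32 and 52.7% over all windows.

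With FAC, Zbtb32 was lower, and by edgeR on group alone none of the other members was called (other fits called up to 3 of them). Zbtb32 (ENSMUSG00000006310) had 21.98, 21.51, 20.30 and 20.46 CPM in FAC mice 1 to 4, against 36.87, 39.03, 36.38 and 40.27 CPM in control mice 1 to 4. Every FAC library lay below every control library, and the libraries of a group lay close together, with a coefficient of variation of 3.87% with FAC and 4.79% in controls. The counts behind these levels were 692, 701, 590 and 523 with FAC and 930, 1435, 1104 and 1144 in controls. The mean was 21.1 ± 0.816 CPM with FAC and 38.1 ± 1.83 CPM in controls (SD, n = 4 each), a log2 change of -0.86 (SE 0.06), so that the control level was 1.81 times the FAC level. In bulk RNA fewer cells with the transcript and less of it per cell cannot be told apart. Because Zbtb32 was singled out for this difference, these values are a description and no p is given for it. Of all 13378 tested genes, 61 had a lower log2 change than Zbtb32, of which 5 were among the 7194 genes whose mean log2 CPM was 4 or more. The gene next to it in RefSeq order, Kmt2b, which encodes a histone methyltransferase, had a log2 change of 0.10 (SE 0.05, edgeR adjusted p = 0.375), and Upk1a on the other side was not tested.

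**Figure D1:**
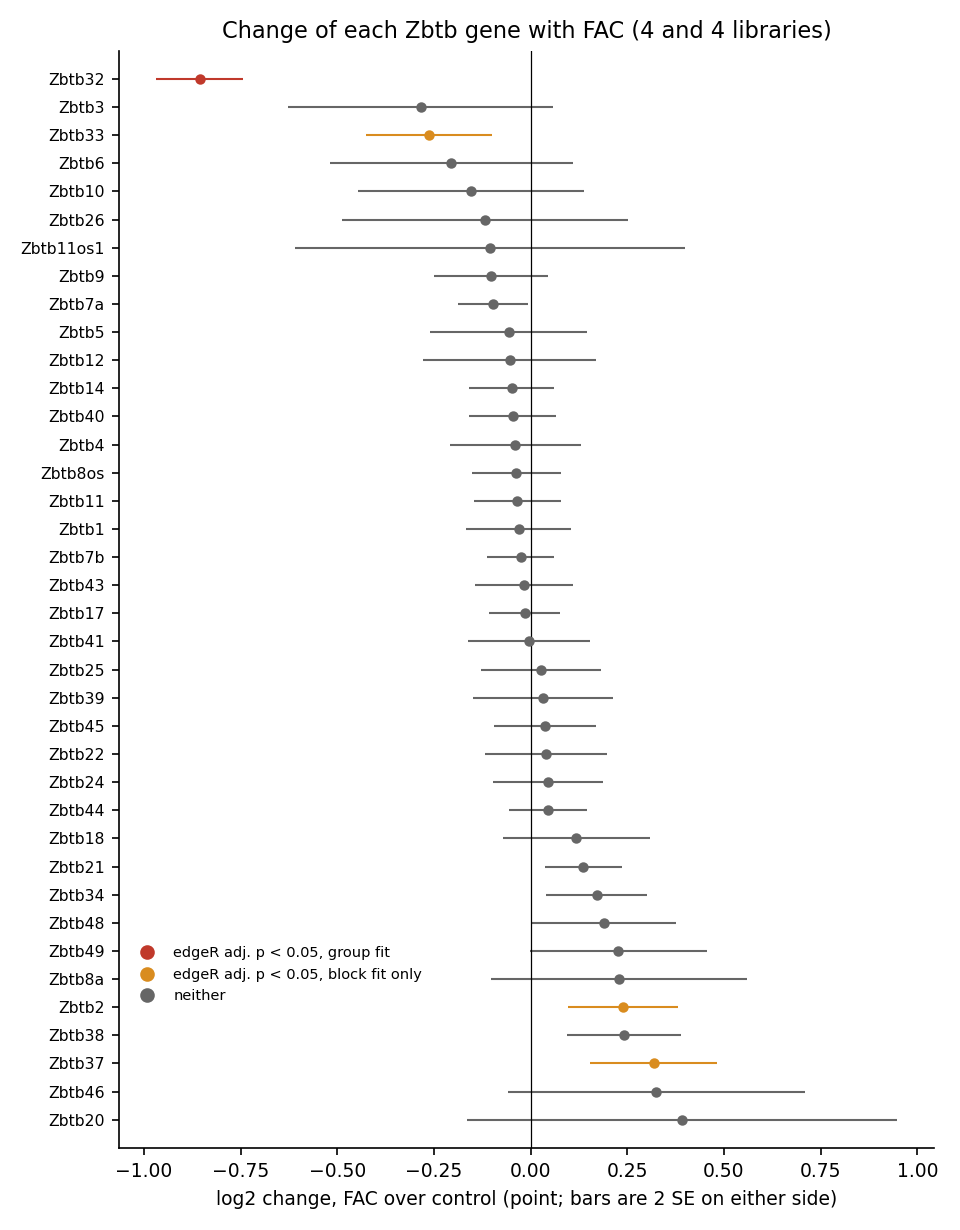
Log2 change of each of the 38 Zbtb genes, FAC over control, on the x axis, with genes down the page in order of change; points are edgeR estimates and bars extend 2 SE on either side (4 FAC and 4 control libraries). Zbtb32 lies at -0.86, and the other 37 genes lie between -0.28 and 0.39. Of the edgeR fits, orange marks genes called with the mouse as a block but not by group alone, and red the gene called by group alone. The red gene is Zbtb32, which was singled out for its difference, so its colour is no independent result.

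The other 37 members moved about as much as all genes did, with a median absolute log2 change of 0.0971, against 0.0944 over all tested genes. Their log2 changes ran from -0.28 (Zbtb3) to 0.39 (Zbtb20), with a median of -0.02, and the median over all 13378 tested genes was -0.00143. Of the 37, 20 had a change below 0 and 17 above, and 32 (86.5%) lay within 0.25 of 0, as did 80.3% of all tested genes. All 38 members passed the filter on low counts. By edgeR's quasi-likelihood test, with p adjusted over all tested genes, 0 of the 37 were called, against 3.27% of all tested genes (2.18% higher and 1.10% lower with FAC). At an unadjusted p under 0.05 there were 6 of 37, against 18.4% of all tested genes. DESeq2 called 2 of the 37, Zbtb33 and Zbtb37, against 5.38% of all genes it tested, and edgeR without the filter called the same genes, against 2.94%. With the mouse as a replicate block, which compares the FAC and control cultures of the same animal, 3 of the 37 were called (8.11%), against 6.87% of all tested genes (4.07% higher and 2.80% lower): Zbtb37 and Zbtb2 higher and Zbtb33 lower. Summed over the 38 genes, the level was 1054 ± 42.8 CPM with FAC and 1069 ± 34.6 CPM in controls (SD, n = 4 each).

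Within each mouse Zbtb32 had the lowest change of the family. Zbtb32 was singled out for its difference in these same libraries, so its rank is a description and no independent result. Its log2 change, FAC minus control on log2(CPM + 0.1), was -0.74, -0.86, -0.84 and -0.97 in mice 1 to 4. The lowest other member was Zbtb3 at -0.64 in mouse 1, Zbtb6 at -0.28 in mouse 2, Zbtb20 at -0.47 in mouse 3 and Zbtb11os1 at -0.76 in mouse 4. Of these 4 genes, Zbtb3, Zbtb20 and Zbtb11os1 averaged under 4 CPM in each group, where counting error is large. The median of the other members was 0.01, 0.04, -0.03 and -0.05 in mice 1 to 4. Among the other 37 members, 7 were higher with FAC in all 4 mice and 4 were lower in all 4, together 29.7%, against 30.2% of all tested genes with the same direction in 4 mice.

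**Figure D2:**
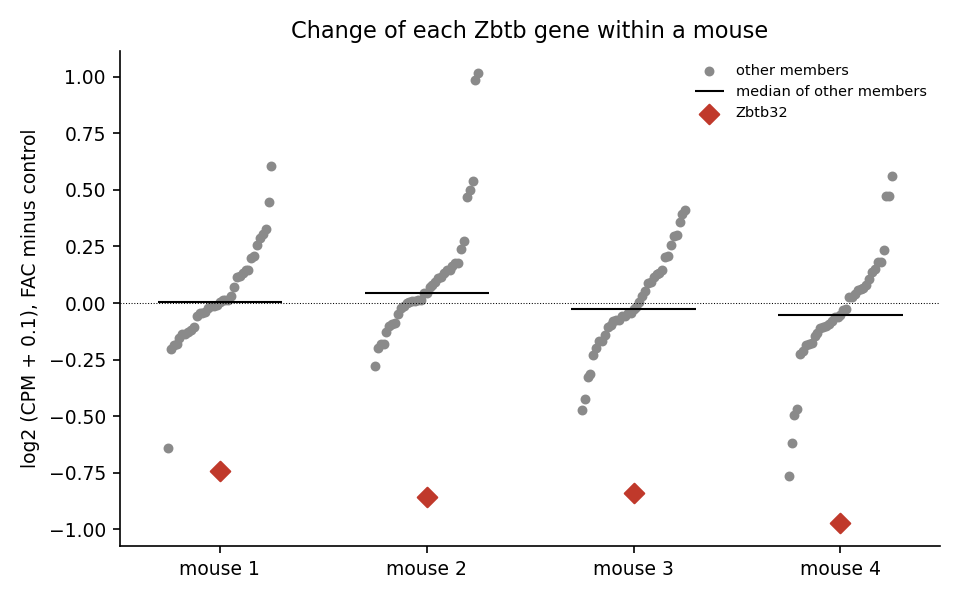
Change of each Zbtb gene within a mouse, as log2(CPM + 0.1) with FAC minus control on the y axis, for mice 1 to 4; grey points are the 37 other members, lines their median and diamonds Zbtb32. Zbtb32 lies at -0.74 to -0.97 and below every other member in each mouse, by the narrowest margin in mouse 1, where Zbtb3 lies at -0.64. Zbtb32 was singled out for its difference, so its place is no independent result.

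Zbtb7b (ENSMUSG00000028042), which encodes ThPOK, had the highest TPM of the zinc finger members and was not called. It had 101.8, 102.4, 106.9 and 102.0 CPM in FAC mice 1 to 4, against 102.5, 99.35, 110.1 and 108.7 CPM in control mice 1 to 4. The groups overlapped. The log2 change was -0.03 (SE 0.04, edgeR adjusted p = 0.801), and 2 SE on either side reached from -0.11 to 0.06. Zbtb7a, which encodes LRF, a relative of ThPOK that acts with it in CD4 T cells, had 77.13, 79.94, 81.41 and 77.37 CPM with FAC, against 84.29, 79.47, 84.69 and 89.55 CPM in controls. Its groups overlapped because control mouse 2 lay below FAC mice 2 and 3, and its change of -0.10 (SE 0.05) did not pass (edgeR adjusted p = 0.275).

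Among 15 tested genes linked to ThPOK in the choice between CD4 and CD8 fates, Runx1 and Cish were lower with FAC. By edgeR on group alone 2 of the 15 were called lower and 0 higher (median log2 change -0.05), against 1.10% lower and 2.18% higher over all tested genes. The list was chosen with earlier results of these data known, so these counts are a description and no test of the list. The replicate block put 3 lower and 1 higher, against 2.80% lower and 4.07% higher over all tested genes. DESeq2 and edgeR without the filter each called 4, against 5.38% and 2.94% of all genes, by DESeq2 Runx1, Cish, Myb and Socs1. Cd4 was at 606 ± 13.0 CPM with FAC and 623 ± 11.8 CPM in controls (SD, n = 4 each; log2 change -0.04, edgeR adjusted p = 0.559). Runx3, which encodes the CD8 lineage factor that ThPOK represses, was at 54.8 ± 4.43 CPM with FAC and 54.2 ± 2.21 CPM in controls (0.02, edgeR adjusted p = 0.919). The genes that fell were Runx1, which encodes a partner of core binding factor beta (47.7 ± 2.41 CPM with FAC and 58.7 ± 2.93 CPM in controls; -0.30, SE 0.05, edgeR adjusted p = 0.00903), and Cish, a feedback inhibitor of cytokine receptors (-0.40, SE 0.04, edgeR adjusted p = 8.46e-05). Each was lower in 4 of 4 mice.

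**Figure D3:**
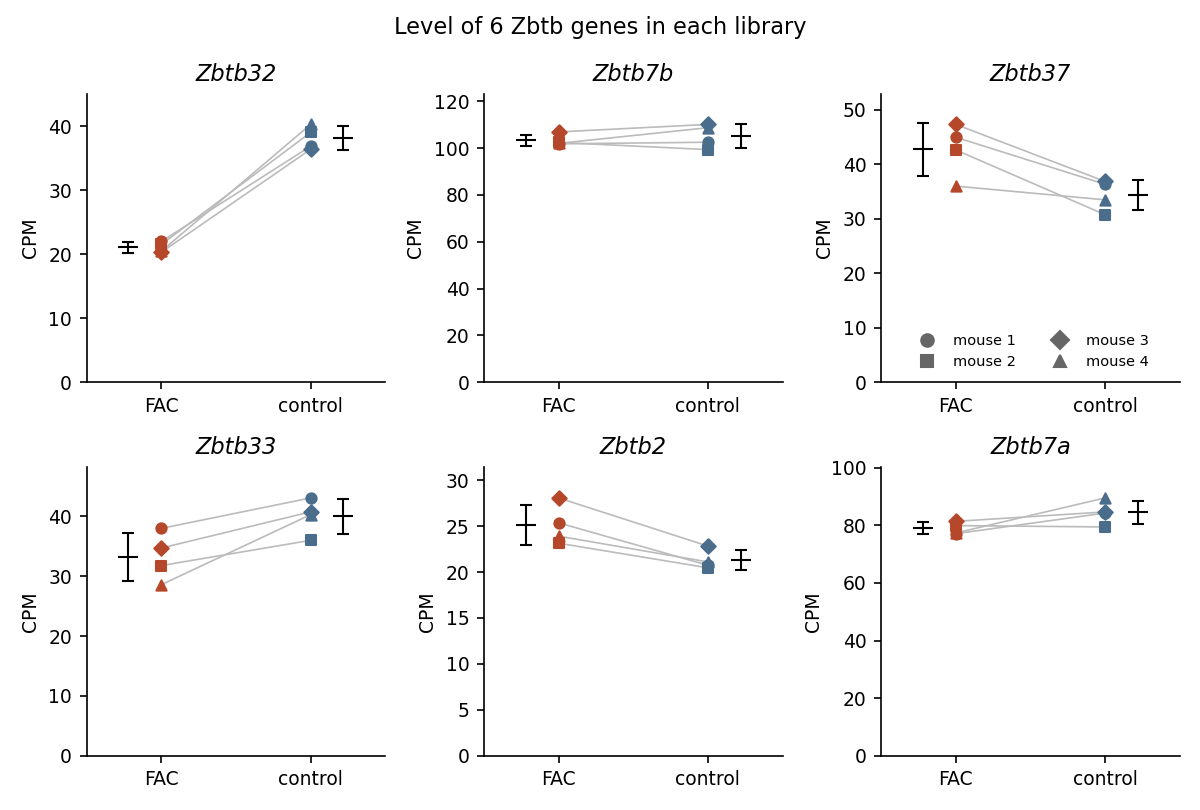
Level of 6 Zbtb genes in CPM on the y axis, with FAC left and control right in each panel; symbols are mice, grey lines join the cultures of a mouse, and black marks give the mean and SD of 4 libraries. Zbtb32 separates the groups (20.30 to 21.98 CPM with FAC against 36.4 to 40.3 CPM in controls), Zbtb2 separates them narrowly, and Zbtb7b overlaps.

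By edgeR, 3 genes were called when the mouse was a block and not by group alone; Zbtb37 and Zbtb33 were also called without the block by DESeq2 and by edgeR without the filter. Zbtb37 had 44.98, 42.65, 47.34 and 36.01 CPM in FAC mice 1 to 4, against 36.35, 30.76, 36.86 and 33.49 CPM in control mice 1 to 4. It was higher with FAC in 4 of 4 mice, but FAC mouse 4 lay below 2 control libraries. The log2 change was 0.32 (SE 0.08), with an edgeR adjusted p of 0.0531 by group alone and 0.00730 with the replicate block. Without FAC mouse 4 it was 0.00776 by group, where 4.03% of all tested genes were called. The change was smaller at 0.17 with the effective length offset (edgeR adjusted p = 0.437), 0.16 on the deposited signal and 0.18 on log2(TPM + 1) (limma adjusted p = 0.463 and 0.508). Zbtb2, which encodes a repressor of cell cycle inhibitor genes in human cells, had 25.36, 23.14, 28.07 and 23.91 CPM with FAC, against 20.74, 20.46, 22.83 and 21.10 CPM in controls. Every FAC library lay above every control library, though by little (23.14 CPM in FAC mouse 2 against 22.83 CPM in control mouse 3). The change was 0.24 (SE 0.07, edgeR adjusted p = 0.0916 by group and 0.0254 with the replicate block). Zbtb2 was not called by DESeq2 (DESeq2 adjusted p = 0.0665) or by edgeR without the filter (edgeR adjusted p = 0.0910). Nor was it called with the effective length offset (edgeR adjusted p = 0.192), on log2(TPM + 1) or on the deposited signal (limma adjusted p = 0.205 and 0.208). RSEM gave both Zbtb37 and Zbtb2 counts that were not whole, by more than 0.005, in all 8 libraries, so some of their reads were shared with other genes.

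Zbtb33 encodes Kaiso, which binds methylated CpG sites. It had 38, 31.79, 34.72 and 28.59 CPM in FAC mice 1 to 4, against 43.10, 36.01, 40.77 and 40.30 CPM in control mice 1 to 4. It was lower with FAC in each mouse, while the groups overlapped because FAC mouse 1 lay above control mouse 2. The log2 change was -0.26 (SE 0.08; edgeR adjusted p = 0.103 by group and 0.0164 with the replicate block). Without FAC mouse 1 the edgeR adjusted p was 0.0336 by group, where 4.06% of all tested genes were called. On TPM the change was smaller, at -0.14 and -0.15 with pseudocounts of 1 and 0.1 (limma adjusted p = 0.635 and 0.632). The other methyl-CpG binding members did not follow it: Zbtb4 had a change of -0.04 (edgeR adjusted p = 0.852) and Zbtb38 one of 0.24 (edgeR adjusted p = 0.0977, and 0.0626 with the replicate block).

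The share of members whose groups did not overlap in CPM was near that of all genes: 5 of 38 in either direction, against 1478 of all 13378 tested genes. Zbtb32 is among the 5 and was singled out for its difference, so only the other members can be set against that share. Of the other 37 members, 4 had every FAC library above every control library in CPM, against 6.17% of all tested genes. They were Zbtb2, Zbtb21, Zbtb34 and Zbtb38. Zbtb38 had 16.36, 17.34, 19.48 and 16.47 CPM with FAC and 14.79, 14.69, 14.63 and 14.82 CPM in controls. Zbtb21 had 38.09, 38.82, 39.50 and 37.51 CPM with FAC and 32.99, 35.06, 36.12 and 35.80 CPM in controls (log2 change 0.14, SE 0.05, edgeR adjusted p = 0.159). Zbtb34 had 22.02, 22.12, 23.02 and 22.65 CPM with FAC and 19.90, 18.28, 19.90 and 21.75 CPM in controls (0.17, SE 0.07, edgeR adjusted p = 0.181). None of these 4 genes was called by group alone. In the other direction 4.88% of all tested genes had FAC below control throughout, and of the members only Zbtb32, which was singled out for its difference.

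Compared per transcript length, the members spanned from 0.331 TPM (Zbtb20) to 82.2 TPM (Zbtb8os) in their mean over 8 libraries, with a median of 9.81 TPM. In that order 8 members averaged at least 20 TPM, 20 lay from 5 up to 20 TPM and 10 were under 5 TPM. After Zbtb8os, Zbtb7b stood second in every library, at 46.6 ± 2.77 TPM with FAC and 45.7 ± 2.24 TPM in controls (SD, n = 4 each). Zbtb17, which encodes Miz-1, a partner of Myc, followed in the mean order at 34.6 ± 3.94 TPM with FAC and 33.8 ± 2.95 TPM in controls. Zbtb7a (28.3 ± 2.33 TPM with FAC and 29.1 ± 2.50 TPM in controls) and Zbtb45 (28.5 ± 1.46 TPM with FAC and 28.7 ± 3.99 TPM in controls) did not differ from each other beyond their spread. Zbtb32 stood at 20.8 ± 1.07 TPM with FAC and 36.1 ± 0.453 TPM in controls. Its place in the order was thus 6 in FAC mouse 1 and 8 in FAC mice 2 to 4, against 3 in control mice 1 to 3 and 4 in control mouse 4. By library, 3 of 38 members had TPM values that did not overlap (Zbtb32 lower, Zbtb2 and Zbtb49 higher with FAC), against 9.38% of all tested genes. Zbtb32 was singled out for its difference and so cannot be set against that share. Zbtb32 made up 3.98% ± 0.31 of the summed TPM of the family with FAC and 6.85% ± 0.272 in controls.

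**Figure D4:**
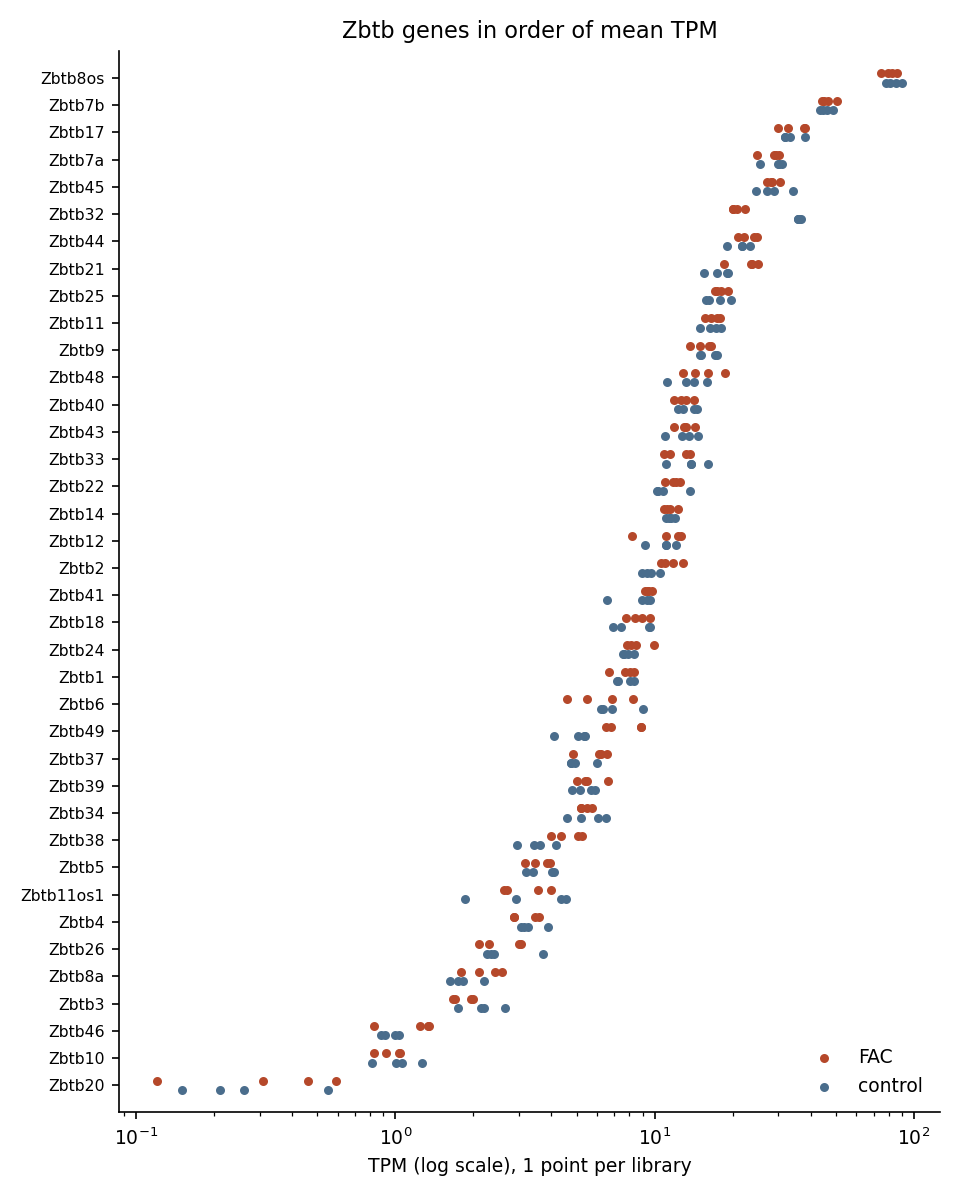
TPM of each Zbtb gene on a log x axis, 1 point per library, with FAC points above control points and genes ordered by mean TPM. FAC and control points mix for most genes, whereas those of Zbtb32 lie apart, at 20.1 to 22.3 TPM with FAC and 35.8 to 36.7 TPM in controls.

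At the low end of the table were Zbtb46, a marker of dendritic cells (3.01 ± 0.640 CPM with FAC and 2.41 ± 0.302 CPM in controls), Zbtb10 (4.89 ± 0.495 CPM with FAC and 5.44 ± 0.983 CPM in controls) and Zbtb20 (1.99 ± 0.361 CPM with FAC and 1.52 ± 0.661 CPM in controls; SD, n = 4 each). None was called. Of the Zbtb genes in the table Zbtb20 had the lowest mean normalised signal, at 57.3, which is far above the lowest row of the table at 5.06. Of those not in it Zbtb42 was highest, with a mean of 8.25 counts, above the signal of that lowest row; the filter that set the rows is not stated. It had 2, 9, 9 and 11 counts in FAC mice 1 to 4 and 5, 3, 21 and 6 counts in control mice 1 to 4. Zbtb16 was also outside it, with 0 counts in all 4 FAC libraries and 1, 1, 1 and 2 counts in control mice 1 to 4, which is under the 3 counts taken as the floor for each library. Zbtb8b had 2 counts in control mouse 2 and 0 elsewhere, and Zbtb7c had 0 counts in all 8 libraries.

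RSEM's effective length of a gene, in bases, moves with the mix of its transcripts and with the fragment lengths of the library, and was not used to choose members. After division by the median of each library, 2 of 38 members had FAC and control values that did not overlap, against 3.27% of all tested genes. Among tested genes with more than 1 annotated transcript the share was 4.09%, and 32 of the 38 members are of that kind. Zbtb49, which has 11 annotated transcripts, was at 1554, 1474, 1344 and 1436 bases in FAC mice 1 to 4, against 1853, 2075, 1882 and 1742 bases in control mice 1 to 4. Its TPM therefore differed more than its counts: 6.47, 8.86, 8.86 and 6.77 TPM with FAC, against 5.08, 4.10, 5.34 and 5.38 TPM in controls, but 7.12, 9.21, 8.29 and 6.88 CPM with FAC against 6.78, 6.31, 7.18 and 6.69 CPM in controls. It was not called on counts (log2 change 0.23, SE 0.11, edgeR adjusted p = 0.316). Zbtb34 went the other way in length, with 5396, 6028, 6042 and 6159 bases with FAC and 4566, 5342, 5343 and 4694 bases in controls, and after scaling its groups were apart by little (98.8% of its mean in FAC mouse 1 against 98.4% in control mouse 3). Zbtb32 did not separate (1390 to 1468 bases with FAC and 1423 to 1537 bases in controls), so its difference appeared in both units. Without FAC mouse 1 the number of members that did not overlap was 10, against 33.3% of all tested genes. Zbtb8a, with 1 annotated transcript, was among the 10, at 100.5 to 100.8% of its mean in FAC mice 2 to 4 against 98.96 to 100.1% in controls. That number is thus no count of members with a changed mix of transcripts. The number that did not overlap was 5 without control mouse 1, 6 without control mouse 3 and 4 without control mouse 4, against 5.46%, 5.45% and 5.58% of all tested genes.

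**Figure D5:**
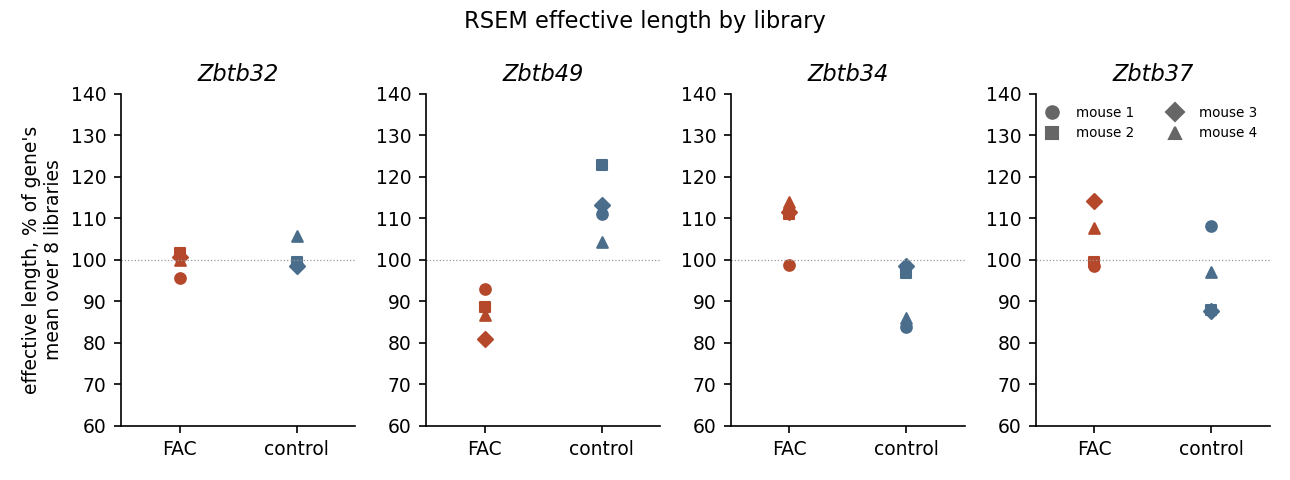
Effective length of 4 Zbtb genes scaled by the median of each library, as a percentage of the mean of that gene over 8 libraries (y axis), with FAC left and control right; symbols are mice. Zbtb49 lies at 80.9 to 92.8% with FAC and 104 to 123% in controls, Zbtb34 at 98.8 to 114% with FAC and 83.8 to 98.4% in controls, and Zbtb32 overlaps.

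None of the BTB zinc finger genes that carry other names was called. Of 8 tested, 0 were called by edgeR, by group alone or with the replicate block, 0 by DESeq2 and 0 at an unadjusted p under 0.05 (median log2 change -0.01). Over all genes tested these shares were 3.27%, 6.87%, 5.38% and 18.4%, in that order. With 8 genes a count of 0 cannot be told from such shares. Bcl6, which encodes the master factor of follicular helper T cells, was at 9.42 ± 1.3 CPM with FAC and 9.96 ± 1.06 CPM in controls (SD, n = 4 each; -0.08, edgeR adjusted p = 0.766). Patz1 and Zfp131 had changes of -0.02 and -0.02. Of 18 tested genes of corepressor complexes, such as Ncor1 and Hdac3, 0 were called by edgeR on group alone (median -4.31e-06) and 0 by DESeq2. At an unadjusted p under 0.05 there were 5, against 18.4% of all tested genes. With the replicate block, by which 6.87% of all tested genes were called, Hdac5 was higher (0.20, edgeR adjusted p = 0.0386) and Tbl1xr1 lower (-0.15, edgeR adjusted p = 0.0347). BTB proteins also serve as adaptors of the ubiquitin ligase built on Cul3. Of 9 tested genes in that list, Nedd8, which encodes the modifier that activates cullins, fell by 0.17 on the log2 scale (122 ± 3.34 CPM with FAC and 138 ± 1.14 CPM in controls; SE 0.04, edgeR adjusted p = 0.0194, and up to 0.0823 with 1 library left out). Nedd8 was the only gene of the 9 called by edgeR on group alone, where 1.10% of all tested genes were called lower.

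Zbtb32 is known in mice as a repressor of GATA3 activity and of cytokine genes. Of 7 tested genes linked to it, 0 were called by edgeR on group alone (median log2 change -0.11). With the replicate block 2 were lower, against 2.80% of all tested genes. DESeq2 called 1 of the 7, Nfatc1, against 5.38% of all genes it tested. At an unadjusted edgeR p under 0.05 there were 2, against 18.4% of all tested genes. The list is short and was chosen with earlier results of these data known, so these counts are a description. Gata3 was at 15.1 ± 1.00 CPM with FAC and 16.3 ± 0.529 CPM in controls (SD, n = 4 each; -0.11, SE 0.07, edgeR adjusted p = 0.427). Those called with the block were Il2 (-0.33; edgeR adjusted p = 0.240 by group and 5.69e-04 with the block) and Nfatc1 (-0.13; 0.0701 and 0.0236). Il4, Il5, Il13 and Il10 were too low to test, averaging at most 0.128 CPM with FAC and 0.392 CPM in controls.

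Miz-1, the product of Zbtb17, is known to bring Myc to the promoters of cell cycle inhibitor genes. Zbtb17 had 51.88, 54.34, 57.57 and 53.59 CPM in FAC mice 1 to 4, against 55.82, 53.96, 54.04 and 55.97 CPM in control mice 1 to 4. The groups overlapped, and 2 SE around its log2 change of -0.02 reached from -0.11 to 0.08. Of 10 tested genes of this axis, 1 was called: Cdkn1a, the p21 gene, was at 21.0 ± 0.868 CPM with FAC and 30.2 ± 1.79 CPM in controls (-0.53, SE 0.06, edgeR adjusted p = 2.88e-04) and lower in 4 of 4 mice, where 1.10% of all tested genes were called lower. DESeq2 called 2 of the 10, Cdkn1a and Myc, against 5.38% of all genes it tested. This list too was chosen with earlier results of these data known. Myc was at 709 ± 29.3 CPM with FAC and 774 ± 31.4 CPM in controls (-0.13, SE 0.04, edgeR adjusted p = 0.116, and 0.0270 with the replicate block).

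Members with known roles elsewhere in lymphocytes or chromatin did not pass either. Zbtb1, needed for lymphoid development, had a log2 change of -0.03, and Zbtb25, its neighbour on chromosome 12, one of 0.03 (edgeR adjusted p = 0.855 and 0.888). Zbtb24, which is mutated in a human immunodeficiency with centromere instability, had one of 0.05, and Zbtb48, a telomere-binding factor, one of 0.19 (edgeR adjusted p = 0.788 and 0.310). Zbtb45 had 36.47, 37.87, 42.46 and 41.19 CPM with FAC, against 36.83, 39.22, 35.55 and 42.13 CPM in controls. Zbtb8os had 31.69, 31.12, 34.91 and 32.49 CPM with FAC, against 34.44, 35.29, 31.81 and 31.94 CPM in controls. For both, the groups overlapped. The neighbouring pair Zbtb6 and Zbtb26 had changes of -0.20 and -0.12 with SEs of 0.16 and 0.18, and RSEM gave both counts that were not whole in all 8 libraries, as it did for 9 members in all.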

How the data were processed

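RNA of 8 cultures (4 FAC and 4 control, paired by the mouse number in the labels) was made into stranded mRNA libraries from 250 ng, per the labels' protocols. Per the submitters' processing notes the build was GRCm39 and the tools included RSEM 1.3.1 with STAR 2.7.6a, DESeq2 1.26.0 under R 3.6.3, DESeq and FastQC, listed without roles. The authors deposited RSEM expected counts (estimated counts, 88.6% to 89.4% of genes per library within 0.005 of a whole number), and, per the file headers, TPM and an effective length in bases. The deposited table of normalised signal was scaled by the authors; its filter on genes is one that the sources used here leave unstated, and its lowest mean is 5.06.

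Expected counts were rounded and tested with edgeR 4.0.16 (R 4.3.3; TMM factors; minimum count 10, minimum total 15; quasi-likelihood F test on group; 13378 genes; Benjamini-Hochberg adjustment over all of them, threshold 0.05). CPM are on the TMM scale. The SE is the absolute log2 change over the square root of F and is approximate. The fit was run on simulated data with the same dispersion for every gene and no mouse effect. That run does not show how the fit behaves with paired cultures. One count equals 0.0272 to 0.0396 CPM. Replicates differed by more than sampling noise. The mouse marks cultures of the same animal, so it was also fitted as a replicate block; same-mouse deviations correlated at r = 0.137, 0.0165, 0.0647 and 0.139 across 13378 genes (largest between different mice 0.0331). DESeq2 1.42.0 and limma 3.58.1 served as alternatives.

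The members and gene lists were chosen with earlier results of these data known. Values in every library are given for Zbtb32, Zbtb7b, members called with or without the block and the 5 members highest in mean TPM; Zbtb21, Zbtb34, Zbtb38 and Zbtb49 were added after their values were seen. Promoter sequences are RefSeq's on GRCm38.p6, an earlier build than the files'. Counting limits cover counting error only, since reads carry no molecular identifiers.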

Additional observations from a re-analysis of the deposited data

Results flagged for a closer look

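Zbtb7b in FAC mouse 3 was at 106.9 CPM, apart from the other 3 FAC libraries (101.8 to 102.4 CPM): its gap to the next library was 0.884 of the range of the group. It was the only such value in the 26 groups of 4 libraries examined, and chance gives about 1 in 20. The control of the same mouse was also the highest of its group, at 110.1 CPM.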

How the results depend on the processing

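Zbtb32 was lower under every alternative run: its log2 change minus the median of the other members was -0.84, -0.88 to -0.82 with 1 library left out and at its smallest -0.78, with limma on log2(TPM + 1). The count of members called by group alone was 1, which is Zbtb32 itself and so no independent result. It was 4 with the replicate block, and 3 with DESeq2 and without a filter on low counts (Zbtb32, Zbtb33 and Zbtb37 in both). It was 1 to 2 with 1 library left out: without FAC mouse 1 Zbtb33 was added and without FAC mouse 4 Zbtb37. Other size factors, limma on TPM with either pseudocount (36 members tested), limma on the deposited signal, the effective length offset, and leaving out Zbtb8os and Zbtb11os1 (added after the data were seen) each gave 1. Over all genes the count of 438 became 919 with the replicate block, 739 with DESeq2, 736 without a filter, 97 and 117 with limma on TPM, 156 on the signal, 187 with the length offset, and 147 to 549 with 1 library left out.

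Of the 63 companion genes tested, 4 were called, against 3.27% of all tested genes, and 11 with the replicate block, against 6.87%. DESeq2 called 8 and edgeR without a filter 7, each of 70 tested, against 5.38% and 2.94% of all genes. The count was 2 with the length offset (1.40% of all genes) and with limma on the signal (1.13%). Limma on TPM called 2 of 60 tested with either pseudocount (0.815% and 0.982% of all genes). With 1 library left out it was 3 to 6 of 63, where 1.08% to 4.06% of all genes were called. Members with separate effective lengths were 2, and 2 to 10 with 1 library left out. Changes near 0 turned sign: with limma on log2(TPM + 1) and log2(TPM + 0.1), Zbtb7b was at 0.0253 and 0.0258 and Zbtb17 at 0.0274 and 0.0280. Zbtb45 was at -0.0463 on the signal and -0.0492 with the length offset. With 1 library left out Zbtb17 ranged from -0.0457 to 0.0057 (without FAC mouse 1) and Zbtb45 from -0.0028 (without control mouse 3) to 0.0838. The cause of these moves was not tested. Depth limits the members under about 4 CPM, such as Zbtb20 and Zbtb46.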
